A study of Mus musculus with 8 samples.

Results

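The caveolae genes are 9 genes whose proteins build caveolae, namely the caveolins Cav1, Cav2 and Cav3, the cavins Cavin1, Cavin2, Cavin3 and Cavin4, and the membrane-bending proteins Ehd2 and Pacsin2. They were chosen by symbol and followed through the Ensembl gene IDs of the count files, and all 9 were found among 55385 gene IDs and among the 22545 genes with enough reads to be tested. Whole lungs of C57BL/6 mouse fetuses at E18.5 were measured by mRNA-seq, with 4 control lungs and 4 lungs after tracheal occlusion (TO), called control 1 to 4 and TO 1 to 4. In TO fetuses the trachea was tied off at E16.5 with a thread passed through the uterus, together with a carotid artery and a jugular vein on one side, and the study's methods give progesterone to the dam the day after. Neither the labels nor the methods say whether the lungs came from separate litters or whether controls had sham surgery, so the p-values below measure the spread between these 8 lungs only.

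Caveolae are small flask-shaped pits of the plasma membrane. Caveolin 1, with caveolin 2, forms their coat outside striated muscle, caveolin 3 does so in heart and skeletal muscle, cavins coat the pit from the cytoplasm, and EHD2 and PACSIN2 act at its neck and on its curvature. In the lung, caveolae are abundant in endothelial cells, alveolar type 1 cells, fibroblasts and smooth muscle, where they flatten under stretch and so buffer membrane tension.

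The libraries held 22822261 to 35002061 read pairs counted on genes, apart from TO 1 with 270078. Levels are given as CPM, read counts scaled to the library total with the TMM factors of edgeR, so that 1 read was worth 3.45 CPM in TO 1 and 0.0284 to 0.0438 CPM in the other 7 libraries. Levels per length and correlations were computed over these 7 deeper libraries where the text says so. In whole lungs, fewer cells of a type and less RNA per cell cannot be told apart.

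Promoters of 4 members are shown, those of Cav1 and Cav2 because the genes are neighbours, and those of the striated muscle genes Cav3 and Cavin4 because their levels varied most between lungs. Cav2 (ENSMUSG00000000058.6, chr6:17281185-17289115) and Cav1 (ENSMUSG00000007655.16, chr6:17306335-17341452) lie on the forward strand of GRCm38, with 17219 bases between the end of Cav2 and the start of Cav1. Cav3 (ENSMUSG00000062694.7, chr6:112459505-112472872) and Cavin4 (ENSMUSG00000028348.7, chr4:48663514-48673502) are also on the forward strand. Each sequence is a RefSeq window of build GRCm38.p6 from 250 bases before to 50 bases after the gene's start, 5′ to 3′ on the forward strand. Capitals mark 3 motifs read on either strand, a TATA box (TATAAA), a GC box (GGGCGG) and an E-box (CANNTG). The windows are chr6:17306085-17306384 for Cav1, where the table holds a second start, chr6:17280935-17281234 for Cav2, chr6:112459255-112459554 for Cav3 and chr4:48663264-48663563 for Cavin4.
Cav1: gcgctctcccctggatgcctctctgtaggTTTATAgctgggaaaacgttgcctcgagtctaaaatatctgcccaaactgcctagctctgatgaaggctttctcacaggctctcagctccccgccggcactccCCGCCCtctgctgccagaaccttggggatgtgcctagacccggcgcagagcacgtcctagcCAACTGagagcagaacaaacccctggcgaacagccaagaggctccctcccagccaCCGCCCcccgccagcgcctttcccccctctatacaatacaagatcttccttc
Cav2: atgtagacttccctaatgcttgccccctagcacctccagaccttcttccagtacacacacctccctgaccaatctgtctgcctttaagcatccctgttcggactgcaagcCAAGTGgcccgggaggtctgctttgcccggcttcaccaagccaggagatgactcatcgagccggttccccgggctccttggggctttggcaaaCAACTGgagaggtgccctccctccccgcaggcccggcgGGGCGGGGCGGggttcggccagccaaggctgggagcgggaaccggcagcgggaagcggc
Cav3: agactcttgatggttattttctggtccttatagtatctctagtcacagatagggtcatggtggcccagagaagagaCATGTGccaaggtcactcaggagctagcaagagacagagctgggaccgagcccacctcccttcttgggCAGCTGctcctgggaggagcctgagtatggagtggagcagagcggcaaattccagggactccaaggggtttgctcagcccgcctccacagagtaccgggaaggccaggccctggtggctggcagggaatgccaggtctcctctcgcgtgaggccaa
Cavin4: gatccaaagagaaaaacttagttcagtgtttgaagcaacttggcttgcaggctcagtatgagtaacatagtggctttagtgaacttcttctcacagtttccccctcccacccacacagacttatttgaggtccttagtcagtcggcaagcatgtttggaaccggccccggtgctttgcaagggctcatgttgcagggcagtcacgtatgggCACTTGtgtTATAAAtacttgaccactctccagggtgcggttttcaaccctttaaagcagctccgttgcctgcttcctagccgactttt

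The Cav2 window held 2 overlapping GC boxes, 9 and 4 bases before its start, and the Cav1 window held GC boxes 118 and 2 bases before its start and a TATA box on the reverse strand 221 bases before it. The Cav3 and Cavin4 windows held no GC box, and Cavin4 had a TATA box 30 bases before its start with an E-box, CACTTG, 39 bases before it. In Cav3, E-boxes stood 174 bases (CATGTG) and 106 bases (CAGCTG) before the start, and no TATA box was found. Of 32851 such windows in the mouse table, 13.6% held TATAAA, 35.7% held GGGCGG and 72.3% held CANNTG, so these matches are common and describe letters only. The table held 12 windows for 8 of the 9 members and none for Cavin3.

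Cav1, the main structural coat protein, had the highest level per length of the members. Per kilobase of exon, and as a mean over the 7 deeper libraries, Cav1 was at 243 ± 38.4 CPM (SD, n = 7), Cavin1 at 203 ± 24.8, Cavin2 at 117 ± 16.2, Ehd2 at 76.6 ± 9.21 and Cav2 at 54.8 ± 14.3. Pacsin2 followed at 26.4 ± 2.27, Cavin3 at 24.1 ± 4.44, Cavin4 at 10.9 ± 6.71 and Cav3 at 4.74 ± 3.23. The order was the same with the length of the longest transcript in place of all exons. Cav1 was above Cavin1 in 7 of 7 libraries although their ranges overlapped. Ehd2 and Cav2 were in this order in 6 of 7 libraries, Pacsin2 and Cavin3 in 5 of 7, Cavin3 and Cavin4 in 6 of 7, and Cavin4 and Cav3 in 6 of 7, with overlapping ranges in each pair. Cav1 stood at percentile 99.5 of all genes tested on this scale and Cav3 at percentile 60.9. The level of Cavin3 is a low estimate, because 374 of its exon bases (22.5%) overlap Gm45667, a gene on the opposite strand, and read pairs on more than 1 gene were not counted.

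**Figure D1:**
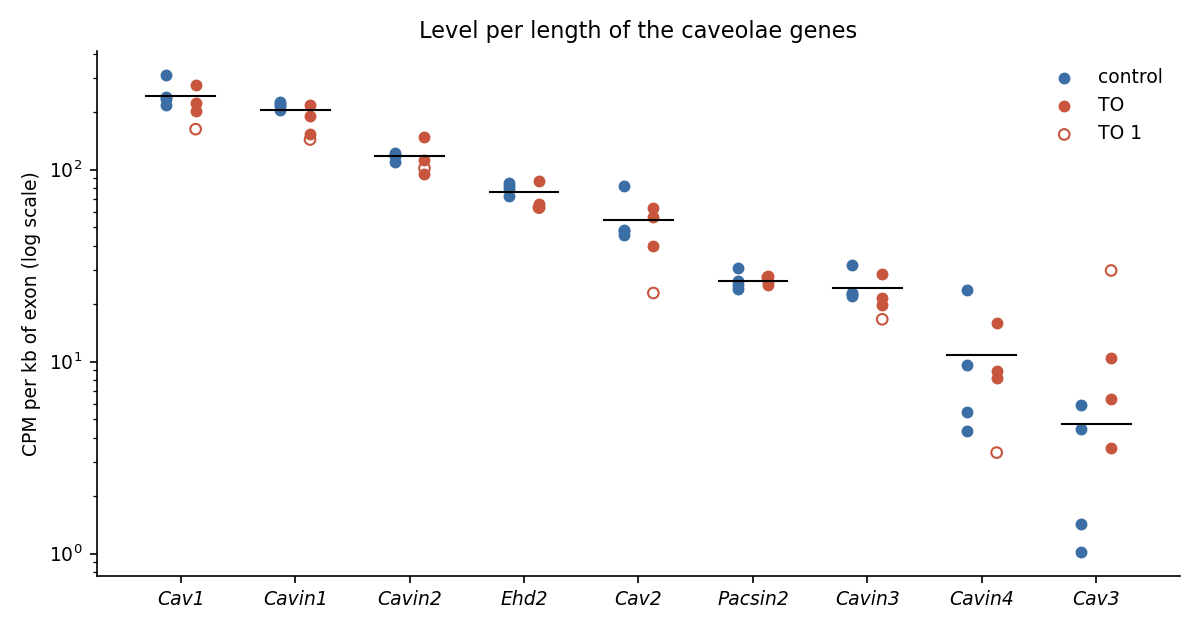
Level of each caveolae gene in CPM per kilobase of exon (vertical axis, log scale), with 1 point per lung, blue for control and red for TO, an open point for the shallow library TO 1, and a line at the mean of the other 7 libraries. Cav1 and Cavin1 lead with means of 243 and 203, and Cav3 is lowest with a mean of 4.74 and widely spread points.

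Within the caveolins, Cav1 made up 75.5% to 82.7% of the summed level per kilobase in the 8 lungs. Cav2 made up 10.6% to 21.3% and Cav3 0.363% to 13.9%, with the highest Cav3 share in TO 1. Among the cavins, Cavin1 held 51.0% to 62.3%, Cavin2 29.99% to 38.4%, Cavin3 5.79% to 8.46% and Cavin4 1.20% to 6.22%. The lungs thus expressed mainly the general forms of both families.

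None of the 9 members was called between TO and control lungs by the edgeR quasi-likelihood test at a Benjamini-Hochberg adjusted p under 0.1, where 0 of all 22545 genes were called (0%). The adjusted p was 1.0 for every member. DESeq2 called 7 genes (0.031% of those tested) and limma-voom 0, and no member was among them. At an unadjusted p under 0.05 edgeR listed 530 genes (2.35%), among them 1 member, Cav3. The fitted log2 fold change was above 0 for 2 of 9 members, Cav3 and Pacsin2, against 46.8% of all genes, and the median over the members was -0.15 against -0.018 over all genes tested. In all 9 members the CPM of TO and control lungs overlapped, as in most genes, since the groups did not overlap in 2.01% of all genes.

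**Figure D2:**
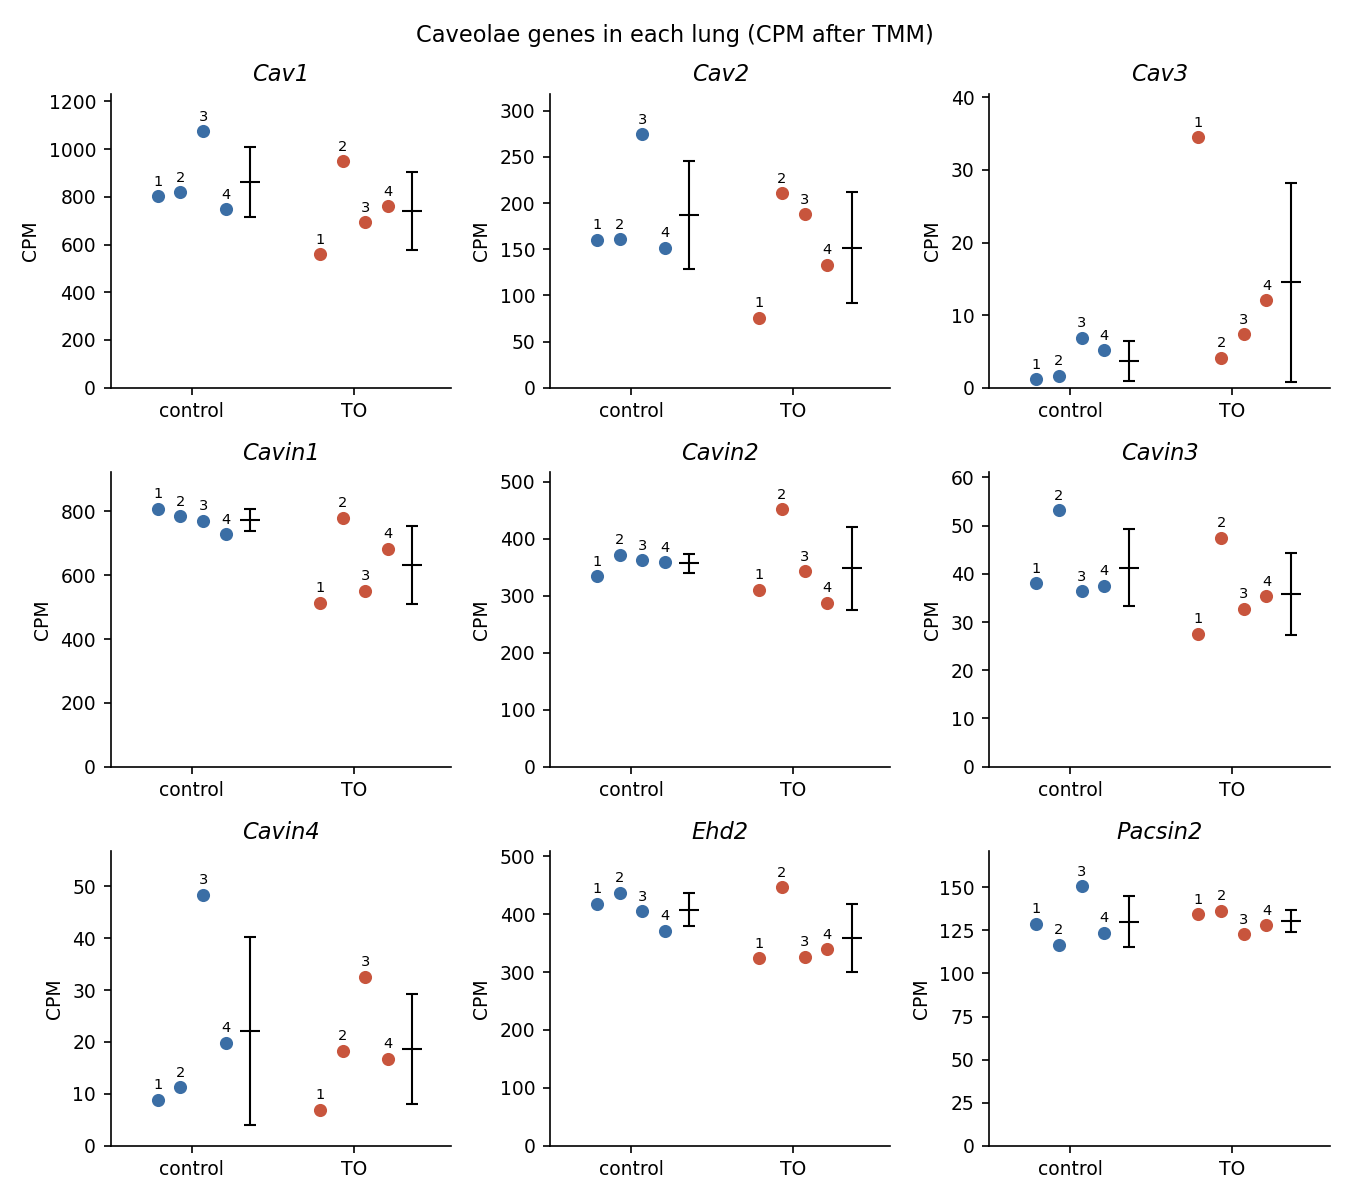
CPM of each of the 9 caveolae genes (1 panel each, vertical axis from 0), with 1 numbered point per lung, blue for control 1 to 4 and red for TO 1 to 4, and a bar at the group mean with its SD (n = 4). The TO and control points overlap in every panel, with TO 1 at 34.5 CPM of Cav3 and control 3 at 48.4 CPM of Cavin4 farthest from the rest.

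Cav1 was at 801 CPM in control 1, 819 in control 2, 1075 in control 3 and 748 in control 4. In TO lungs it was at 559 in TO 1, 948 in TO 2, 694 in TO 3 and 761 in TO 4. TO 1 and TO 3 were below every control lung, TO 2 was above all but control 3, and the groups overlapped. The means were 861 ± 146 CPM in control and 741 ± 162 in TO (SD, n = 4 each). The log2 fold change was -0.21 (SE 0.18, 95% interval -0.60 to 0.18, adjusted p 1.0 in edgeR), and the exact two-sided permutation test gave p = 0.343, where 4 against 4 lungs allow no p below 0.0286.

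Cav2, which needs caveolin 1 to reach the cell surface, was at 160.45 CPM in control 1, 161 in control 2, 275 in control 3 and 152 in control 4. TO 1 had 75.9 CPM from 22 reads, TO 2 had 210.4, TO 3 had 188 and TO 4 had 133. Control 3 was above all other lungs, and the other 3 controls lay within the range of the TO lungs. The group means were 187 ± 58.7 and 152 ± 60.1 CPM (SD, n = 4 each). The log2 fold change was -0.24 (SE 0.27, 95% interval -0.83 to 0.35), and it was 0.029 without control 3, so that its sign rested on this lung. The exact permutation test gave p = 0.457.

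Cav3, the caveolin of striated muscle, had the largest difference of the members. It was at 1.18 CPM in control 1, 1.66 in control 2, 6.89 in control 3 and 5.13 in control 4. TO 2 had 4.11 CPM, TO 3 had 7.39 and TO 4 had 12.0, and TO 1 had 34.5 from 10 reads, for which the 95% Poisson interval of the count spans 16.5 to 63.5 CPM and covers counting error only. Of the TO lungs, 3 were above every control lung, and TO 2 was below control 3 and control 4. The means were 3.72 ± 2.75 CPM in control and 14.5 ± 13.7 in TO (SD, n = 4 each), or 7.85 ± 3.99 in TO without TO 1. The log2 fold change was 1.47 (SE 0.67, 95% interval 0.0063 to 2.93) with an unadjusted p of 0.0492 and an adjusted p of 1.0 in edgeR, and the exact permutation test gave p = 0.114. Without TO 1 it was 1.08 with an unadjusted p of 0.101 in edgeR, and over the fits that left out 1 lung each it ranged from 1.08 to 1.93.

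Cavin1 (ENSMUSG00000004044.9, chr11:100956733-100970887, reverse strand), the cavin without which caveolae do not form, was at 808, 786, 771 and 728 CPM in controls 1 to 4. It was at 514 CPM in TO 1, 780.3 in TO 2, 552 in TO 3 and 684 in TO 4. The control lungs lay close together, and TO 1, TO 3 and TO 4 were below all of them while TO 2 was within their range. The means were 773 ± 33.7 and 632 ± 122 CPM (SD, n = 4 each), with a log2 fold change of -0.28 (SE 0.15, 95% interval -0.61 to 0.040, unadjusted p 0.0799, adjusted p 1.0 in edgeR). The exact permutation test gave p = 0.0857, the smallest of the 9 members.

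Cavin2 (ENSMUSG00000045954.7, chr1:51289126-51302960, forward strand), which shapes the membrane of caveolae, was at 334, 372, 362 and 359 CPM in controls 1 to 4 and at 311, 452, 343 and 288 CPM in TO 1 to 4. TO 2 was above and TO 1 and TO 4 below all controls, so that the TO lungs spread more widely than the controls. The log2 fold change was -0.027 (SE 0.15, 95% interval -0.36 to 0.30). Cavin3 (ENSMUSG00000037060.3, chr7:105480083-105482300, reverse strand), which takes part in the trafficking of caveolae, was at 38.0, 53.2, 36.5 and 37.6 CPM in controls and at 27.6 (from 8 reads), 47.5, 32.8 and 35.4 CPM in TO 1 to 4. TO 1, TO 3 and TO 4 were below every control and TO 2 was below control 2. Its log2 fold change was -0.15 (SE 0.19, 95% interval -0.57 to 0.27).

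Cavin4, the cavin of cardiac and skeletal muscle, was at 8.89 CPM in control 1, 11.3 in control 2, 48.4 in control 3 and 19.8 in control 4. TO 2 had 18.3 CPM, TO 3 had 32.5 and TO 4 had 16.8, and TO 1 had 6.90 from 2 reads, for which the Poisson interval of the count spans 0.836 to 24.9 CPM. Control 3 was the highest of all lungs and, among the deeper libraries, control 1 the lowest. The log2 fold change was -0.073 (SE 0.50, 95% interval -1.16 to 1.01). It was 0.68 without control 3 and 0.75 (unadjusted p 0.0548) without both control 3 and TO 1, so that sign and size rested on these lungs.

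Ehd2 (ENSMUSG00000074364.6, chr7:15946958-15967567, reverse strand), an ATPase that holds caveolae at the cell surface, was at 418, 437, 405 and 371 CPM in controls 1 to 4 and at 324, 447, 327 and 339 CPM in TO 1 to 4. TO 1, TO 3 and TO 4 were below every control and TO 2 was above every control. The log2 fold change was -0.18 (SE 0.14, 95% interval -0.48 to 0.12). Pacsin2 (ENSMUSG00000016664.16, chr15:83375607-83464606, reverse strand), an F-BAR protein that bends membranes, was at 129, 117, 151 and 124 CPM in controls and at 135, 136, 122.9 and 128 CPM in TO lungs. All TO values lay between the lowest and the highest control. Its log2 fold change was 0.00097 (SE 0.12) with a 95% interval of -0.27 to 0.27, the narrowest interval of the members. Pacsin2 also varied least between the 7 deeper libraries, with a coefficient of variation of 8.60%, against 68.1% for Cav3 and 61.8% for Cavin4.

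Among the TO lungs, TO 2 had the highest CPM in 7 of 9 members, and TO 1 the lowest in 6. When TO 2 was left out, Cavin1 (log2 fold change -0.40, unadjusted p 0.0229) and Ehd2 (-0.30, unadjusted p 0.0438) joined Cav3 (1.87) below an unadjusted p of 0.05, and the edgeR adjusted p was 1.0 for each. That fit listed 638 of all 21882 genes tested at an unadjusted p under 0.05 and called none (0%). Control 3 and TO 1 are not among the lungs that the study itself compared. When both were left out, 6 of 9 members were above 0 against 49.3% of all genes, and edgeR called none of 21859 genes (0%) at the adjusted threshold and listed 1123 (5.14%) at an unadjusted p under 0.05. In these 6 lungs the log2 fold change was 0.019 for Cav1, 0.17 for Cav2, 1.56 for Cav3 (SE 0.59, unadjusted p 0.0256, adjusted p 0.907 in edgeR) and -0.20 for Cavin1. DESeq2 on the same 6 lungs called 44 genes (0.201%) and no member, with an adjusted p of 0.329 for Cav3 and 0.60 for Cavin4.

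**Figure D3:**
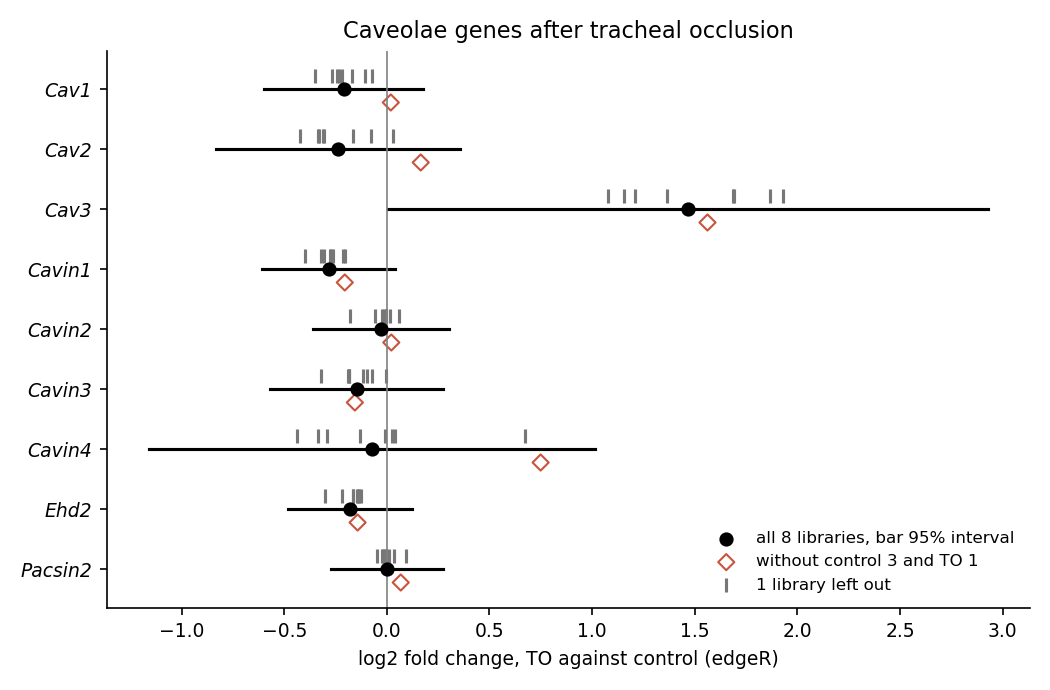
Log2 fold change of each caveolae gene, TO against control, from edgeR (horizontal axis), with black points and 95% intervals for all 8 libraries, open red diamonds for the 6 libraries without control 3 and TO 1, and grey ticks for fits that leave out 1 library. Among the members only the interval of Cav3 lies above 0, from 0.0063 to 2.93, and the diamonds of Cav1, Cav2, Cavin2 and Cavin4 are on the other side of 0 from their points.

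The specimen names carry a number that several lungs share, with controls 1 and 4 and TO 1 and 4 under one number, control 2 and TO 2 under another, and control 3 and TO 3 under a further one. What the number marks is not stated. Within these sets, the TO minus control difference in log2 CPM of Cav3 was 2.998 (2.24 without TO 1), 1.27 and 0.10, above 0 in 3 of 3. For Cavin1 it was -0.37 (-0.17 without TO 1), -0.010 and -0.48, below 0 in 3 of 3. For Cavin3 it was -0.27 (-0.093 without TO 1), -0.16 and -0.15, also below 0 in 3 of 3. How many of all genes kept 1 direction over the sets was not counted. Cav1 differed by -0.25, 0.21 and -0.63 and Ehd2 by -0.25, 0.030 and -0.31, so their direction was not shared by the sets. A single set holds too few lungs for a test of its own, and the sets were tested together by an edgeR fit of all 8 lungs with the specimen number as a block. It called no member and none of the genes tested (0%), and it listed 5.11% of genes at an unadjusted p under 0.05. In this fit Cav3 had a log2 fold change of 1.47 (SE 0.52, unadjusted p 0.0145, adjusted p 0.883), Cavin1 -0.29 (SE 0.12, unadjusted p 0.0343, adjusted p 0.942) and Cavin3 -0.16 (SE 0.13, unadjusted p 0.245).

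Ratios between members were compared because both genes of a ratio share the library. Per kilobase, Cavin2 was at 0.543 ± 0.0403 of Cavin1 in control and 0.653 ± 0.108 in TO lungs (SD, n = 4 each, exact permutation p = 0.114, adjusted p 0.343 over 6 ratios). Pacsin2 was at 0.123 ± 0.0147 of Cavin1 in control and 0.155 ± 0.0286 in TO (exact permutation p = 0.114, adjusted p 0.343). Cav2 was at 0.221 ± 0.0289 of Cav1 in control and 0.207 ± 0.0603 in TO (exact permutation p = 0.629). No ratio of the 6 passed the threshold.

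Cardiac muscle markers moved with Cav3, the member with the largest difference. In control lungs their summed level was 787 CPM in control 1, 559 in control 2, 5781 in control 3 and 4614 in control 4, and in TO lungs it was 8643, 2585, 3891 and 6934 CPM in TO 1 to 4. The lungs low in these markers, controls 1 and 2, were also the lowest in Cav3, and TO 1 and TO 4 were the highest in both. Over the 7 deeper libraries Pearson's r between the log2 values of Cav3 and of the cardiac markers was 0.95 (exact permutation p = 0.00357) and Spearman's rho 0.86 (exact permutation p = 0.0238). It was 0.82 over the 5 lungs left without controls 1 and 2, which lie farthest from the median marker level. All 10 cardiac markers were above 0 in TO lungs, with a median log2 fold change of 1.01. The median was 1.61 without control 3, 0.67 without control 1, 0.66 without control 2 and 0.70 without TO 1, so its size moved with the lungs included. None of the cardiac markers was called by edgeR, DESeq2 or limma-voom or had an unadjusted p under 0.05 in edgeR. The 3 most abundant, Myh6 and Myh7, the cardiac myosin heavy chains, and Actc1, cardiac actin, had log2 fold changes of 0.51, 1.15 and 0.83.

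Per 1000 CPM of cardiac markers, Cav3 was at 1.502, 2.97, 1.19 and 1.11 CPM in controls 1 to 4 and at 3.99, 1.59, 1.90 and 1.74 CPM in TO 1 to 4. On this scale every TO lung was above controls 1, 3 and 4, while control 2 was above TO 2, TO 3 and TO 4, so the groups overlapped. Cavin4 per 1000 CPM of cardiac markers was at 11.3, 20.2, 8.38 and 4.30 CPM in controls and at 0.798, 7.09, 8.36 and 2.42 CPM in TO lungs. Its r with cardiac markers was 0.74 (exact permutation p = 0.0595), with rho 0.57 (exact permutation p = 0.20), and r was 0.18 without controls 1 and 2, so that this relation rested on these lungs. With lipofibroblast and adipocyte markers Cavin4 had r = 0.96 (exact permutation p = 0.00218) and rho = 0.86 (exact permutation p = 0.0238), and r = 0.89 without control 3 and control 1. Lpl and Plin2 held most of that marker sum, with means of 141 and 130 CPM over the deeper libraries, against 27.1 for Fabp4. Which cells made these transcripts was not tested, so the relation does not place Cavin4 in lipofibroblasts. The part of heart tissue in the levels of Cav3 and Cavin4 was not tested.

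**Figure D4:**
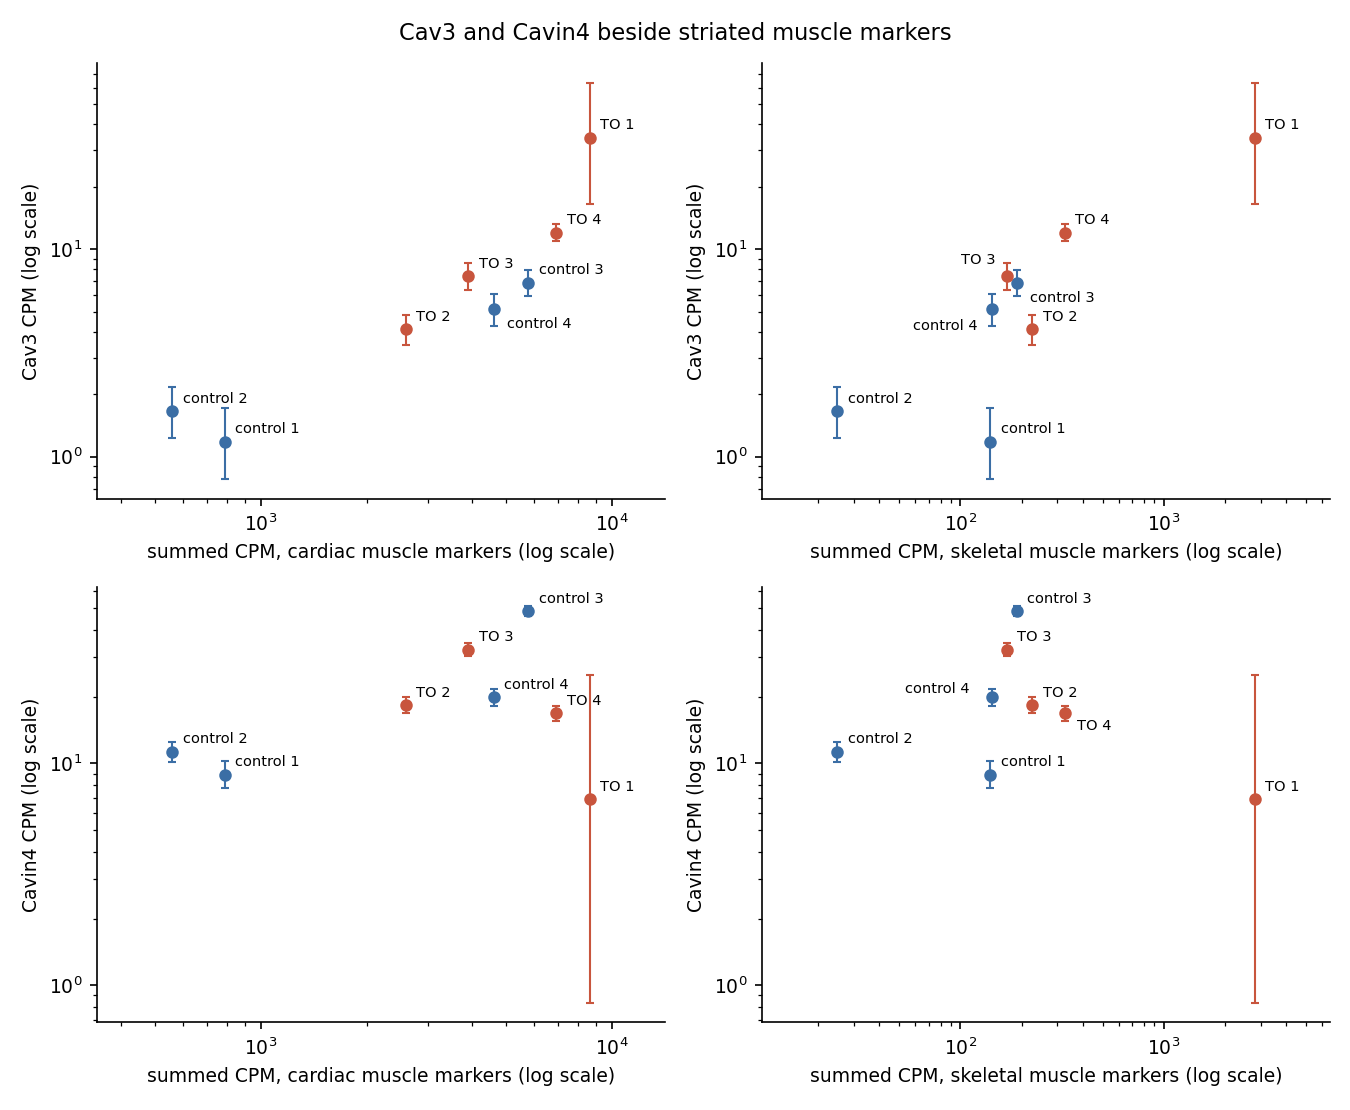
CPM of Cav3 (upper panels) and Cavin4 (lower panels) against the summed CPM of cardiac (left) and skeletal (right) muscle markers, all axes on a log scale, with 1 labelled point per lung and vertical bars for the 95% Poisson interval of the count. Cav3 and the cardiac markers are both lowest in controls 1 and 2, at 1.18 and 1.66 CPM of Cav3, and highest in TO 4 at 12.0 and TO 1 at 34.5 CPM, while Cavin4 is highest in control 3 at 48.4 CPM.

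Skeletal muscle markers summed to 141, 24.8, 190.0 and 144 CPM in controls and to 2795, 226, 169 and 326 CPM in TO 1 to 4. The library TO 1 stood above all others. Of these sums Ckm, which heart muscle also makes, held 20.9, 8.71, 130 and 79.1 CPM in controls 1 to 4. In TO 1 to 4 it held 286, 52.4, 70.2 and 138 CPM, so the sums do not measure skeletal muscle alone. Of 9 markers tested, 9 were above 0 in TO lungs with a median log2 fold change of 2.22, and 7 had an unadjusted p under 0.05 in edgeR while none was called by the 3 tools. The median was 1.05 without TO 1 and 1.26 without control 3 and TO 1. The 3 most abundant were Ckm, muscle creatine kinase, with a log2 fold change of 1.03 over 8 lungs, Acta1, skeletal actin, with 3.06, and Myh8, a perinatal myosin heavy chain, with 3.98. Without TO 1 these were 0.54, 0.99 and 1.504, so that the size of each rested on that library.

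The other members were set beside markers of the cell types known to carry caveolae. Over the 7 deeper libraries, the log2 CPM of Cav1 moved with the summed endothelial markers, with r = 0.88 (exact permutation p = 0.00714) and rho = 0.93 (exact permutation p = 0.00675), and r was again 0.88 without TO 3 and TO 4, the lungs farthest from the median marker level. For Ehd2 and the same markers r was 0.91 (exact permutation p = 0.00437) and rho 0.89 (exact permutation p = 0.0123), with r = 0.71 without TO 3 and TO 4. For Cavin1 r was 0.87 (exact permutation p = 0.00675) and rho 0.68 (exact permutation p = 0.11), with r = 0.49 without these lungs. Cav2 followed the alveolar type 1 markers, with r = 0.90 (exact permutation p = 0.00694) and rho = 0.96 (exact permutation p = 0.00278), and r = 0.85 without TO 4 and control 3. With the mesothelial markers Cav2 had nearly the same r of 0.89 (exact permutation p = 0.00734) and a rho of 0.93 (exact permutation p = 0.00675), and r = 0.57 without TO 4 and control 3. Krt19 and Msln hold most of that marker sum, and Krt19 is not made by mesothelial cells alone. Smooth muscle markers had weaker relations, with r = 0.30 for Cav1, 0.42 for Cavin1 and 0.46 for Pacsin2. For Cav2 their r was -0.10, for Cavin2 -0.55, for Cavin3 -0.31 and for Ehd2 -0.034. The smallest exact permutation p among these smooth muscle values was 0.206, for Cavin2. Over all 99 relations computed between members or between a member and a marker list, the smallest Benjamini-Hochberg adjusted p of these permutation tests was 0.0908 for r and 0.134 for rho. All points share their library and its scaling, and the sets of specimen names hold 4 or fewer lungs, too few for a correlation within them. Control and TO lungs are pooled in all these relations, so a shift shared by a group or set also enters r and its permutation p.

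Endothelial markers numbered 10, and 1 of 10 was above 0 in TO lungs with a median log2 fold change of -0.23. Leaving out TO 1 gave a median of -0.12 and leaving out TO 2 one of -0.38. In the 6 lungs other than control 3 and TO 1 it was -0.066, with 4 of 10 above 0. None was called by edgeR, DESeq2 or limma-voom, and none had an unadjusted p under 0.05 in edgeR. Their summed level ranged from 2086 to 2556 CPM in control and from 1532 to 2645 CPM in TO lungs. The 3 most abundant were Cdh5, the cadherin of endothelial junctions, with a log2 fold change of -0.28, Pecam1, an endothelial adhesion molecule, with -0.24, and Kdr, a VEGF receptor, with -0.24. Cav1 per 1000 CPM of endothelial markers was at 346 to 421 CPM in control and 359 to 398 CPM in TO lungs, so that the TO range lay within the control range. Cavin1 on the same scale was at 302 to 349 CPM in control and 295 to 345 CPM in TO lungs.

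Of the 8 alveolar type 1 markers, 2 were above 0 and the median log2 fold change was -0.30. The size moved with the lungs included, since the median was -0.042 without control 3, -0.15 without TO 1 and -0.52 without TO 2. Without both control 3 and TO 1 it was 0.080, with 4 of 8 then above 0, so the direction rested on these lungs. None was called by the 3 tools, and 1 had an unadjusted p under 0.05 in edgeR, Akap5, an anchoring protein of kinases (log2 fold change -0.59, unadjusted p 0.0173). The other 2 of the 3 most abundant were Ager, a receptor of the alveolar type 1 surface, with -0.41, and Clic5, an ion channel protein, with -0.34. The summed level ranged from 2077 to 3344 CPM in control and from 1090.3 to 2698 CPM in TO lungs. Cav2 per 1000 CPM of these markers ranged from 66.3 to 82.1 CPM in control and from 69.6 to 98.2 CPM in TO. Whether the marker levels account for the levels of Cav1, Cav2, Cavin1 or Ehd2 was not tested.

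Among the members themselves, the 21 pairs of the 7 genes other than Cav3 and Cavin4 had a median r of 0.55 over the 7 deeper libraries, from -0.23 to 0.87, with 19 pairs above 0. The pair with the highest r was Cavin1 and Ehd2 (r = 0.87, exact permutation p = 0.00258, rho = 0.86, exact permutation p = 0.0238), with r = 0.77 without TO 3 and TO 4. Cav1 and Cav2 had r = 0.79 (exact permutation p = 0.0355) and rho = 0.61 (exact permutation p = 0.167), and r was -0.41 without control 3 and TO 2, so this relation rested on these lungs. The same held for Cav1 and Pacsin2, with r = 0.83 (exact permutation p = 0.0192) and rho = 0.64 (exact permutation p = 0.139) over 7 lungs and r = -0.15 without control 3 and TO 2.

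**Figure D5:**
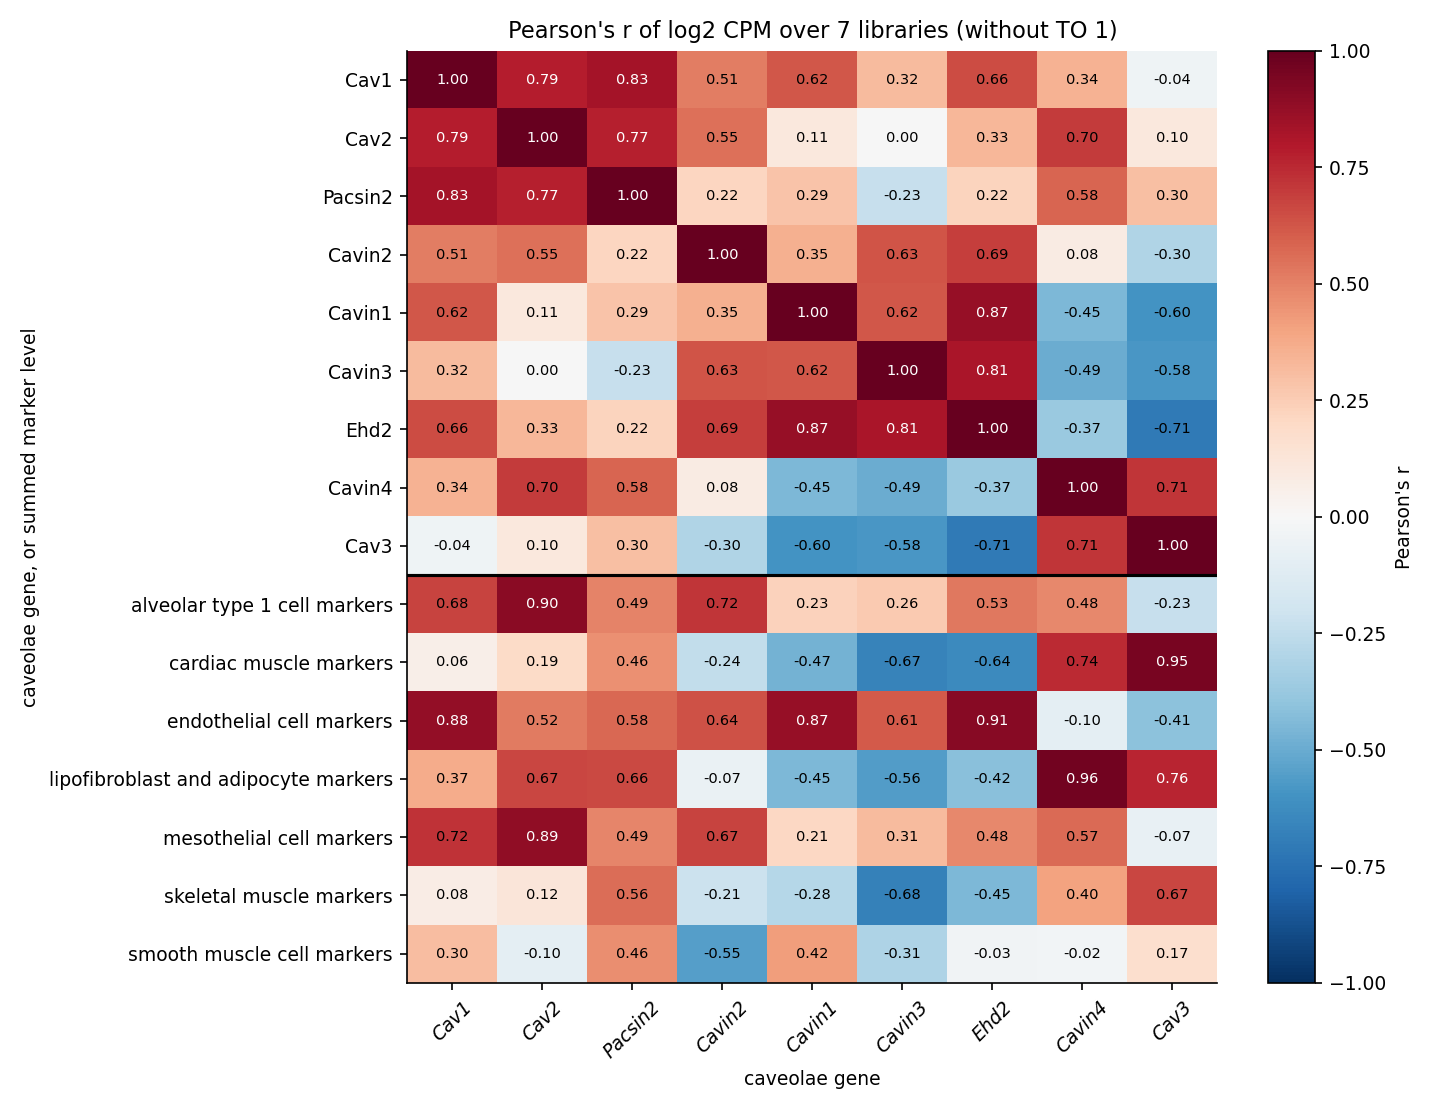
Pearson's r of log2 CPM over the 7 libraries other than TO 1, between caveolae genes (upper rows) and between caveolae genes and the summed level of 7 marker lists (lower rows), with red for positive and blue for negative r. Cav3 and cardiac muscle markers have r = 0.95, Cavin4 and lipofibroblast and adipocyte markers r = 0.96, and Cav1, Cavin1 and Ehd2 have r of 0.87 to 0.91 with endothelial markers.

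In the remaining marker lists none of the genes was called by the 3 tools, and the medians moved with the lungs included. Smooth muscle markers had 3 of 7 genes above 0 and a median log2 fold change of -0.024, and were led by Acta2, smooth muscle actin (-0.42), Myh11, its myosin (-0.27), and Smtn, smoothelin (-0.14). In this list Tagln is counted low, since 67.9% of its exon bases overlap other genes. Lipofibroblast and adipocyte markers had 2 of 4 genes above 0 and a median of 0.085, led by Lpl, a lipoprotein lipase (0.19), Plin2, a coat protein of lipid droplets (-0.018), and Fabp4, a fatty acid binding protein (1.13). Their summed level was 523 CPM in control 3, the lung highest in Cavin4, against 193 to 251 CPM in the other controls and 276.5 to 390.2 CPM in TO lungs. Without control 3 and TO 1 the medians of the 3 lists were 0.19 for smooth muscle, 0.54 for lipofibroblast and adipocyte and 0.19 for mesothelial markers. Mesothelial markers had 2 of 5 genes above 0 over 8 lungs and a median of -0.12, led by Krt19 (-0.47, unadjusted p 0.0199 in edgeR), Msln (-0.26) and Upk3b (0.056). Over the 7 deeper libraries Krt19 had a mean of 281 CPM and Msln 278, against 43.8 for Upk3b, 12.6 for Lrrn4 and 11.4 for Wt1. Krt19 is not made by mesothelial cells alone, so the sum of this list is not a measure of these cells alone.

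The paralogs of the neck proteins were Ehd1, Ehd3, Ehd4, Pacsin1 and Pacsin3, which act in endosomal recycling and membrane bending. Of these 5, 2 were above 0 and the median log2 fold change was -0.020, with none called by the 3 tools and none with an unadjusted p under 0.05. Ehd4 was at a mean of 139.6 CPM in control and 136 CPM in TO lungs, Ehd1 at 48.1 and 46.2, and Pacsin3 at 33.9 and 33.7. Flot1 and Flot2, the flotillins, which mark membrane domains without caveolae, had log2 fold changes of -0.23 (SE 0.20) and -0.023 (SE 0.13), with a median of -0.13 that was 0.038 without control 3.

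Of 12 genes that regulate caveolae or reside in them, 4 were above 0 and the median log2 fold change was -0.077, with none called by the 3 tools. Flna, the filamin that ties caveolae to actin, was at a mean of 1451 CPM in control and 1350.0 CPM in TO lungs, with a log2 fold change of -0.10 (SE 0.14). Cd36, a fatty acid receptor, was at 319.7 and 382 CPM (log2 fold change 0.27, SE 0.24), and Aqp1, a water channel of endothelial caveolae, at 254 and 256 CPM (0.019, SE 0.18). The one gene of this list with an unadjusted p under 0.05 was Src, the kinase that phosphorylates caveolin 1, named after its values were seen (log2 fold change -0.39, SE 0.14, unadjusted p 0.0190, adjusted p 1.0 in edgeR). It was at 134, 157, 134 and 128 CPM in controls 1 to 4 and at 75.9, 121, 105 and 108 CPM in TO 1 to 4. Every TO lung was below every control lung in Src, which was so for 1.3% of all genes tested.

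Genes were also ranked by likeness to Cav1 and to Cav3, by Pearson's r of log2 CPM over the 7 deeper libraries among 16912 genes. The 5 genes most like Cav1 were Smarca2, a chromatin remodelling ATPase (r = 0.986), Cap1, an actin regulator (0.979), Pecam1 (0.9749), Clec1a, a C-type lectin (0.974), and Hist1h4h, a histone (0.972). The 5 most like Cav3 were Gabra3, a GABA receptor subunit (0.990), Lrrc39, a protein of the muscle sarcomere (0.983), Gpatch2l (0.981), Rbm24, an RNA-binding protein of muscle (0.979), and Kcng2, a potassium channel subunit (0.976). These values are the highest of many and carry no test.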

How the data were processed

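Whole-lung mRNA of 4 control and 4 TO fetuses was sequenced by the authors as paired reads and aligned to GRCm38 with STAR, whose version and annotation are not given in the sources used here. Each deposited file gives 1 library as whole-number counts of read pairs falling on a gene, with no scaling, and the column for both strands together was used, since each strand held 49.9% to 50.1% of the reads. Rows that name no gene (unmapped, multimapping, no gene, several genes) held 23.1% to 27.1% of read pairs and were left out. Of 55385 gene IDs, 55144 matched GENCODE M21, which gave symbols, exons and coordinates.

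Tests covered genes that reached 5 reads in no fewer than 3 libraries, in R 4.3.3 with edgeR 4.0.16 (quasi-likelihood test, TMM), with Benjamini-Hochberg adjustment over all genes and a threshold of 0.1. DESeq2 1.42.0, limma 3.58.1 (voom), other scalings and filters, each library left out, 6 libraries, and blocks by replicate number or specimen number were alternatives. Log2 CPM used a prior count of 2. The analysis was tested on simulated data. Single genes and ratios were compared by exact two-sided permutation of the lungs, and correlations by exact permutation of pairings (Python 3.11.15, scipy 1.17.1).

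Named genes are the 9 members, up to 3 genes of each list with the highest mean CPM over the 7 deeper libraries, and the 5 genes most like Cav1 and Cav3. Src was added after its values were seen. The members and lists were chosen with earlier results of these data known. Precision is limited by depth in TO 1, and the Poisson intervals of the counts cover counting error only.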

Additional observations from a re-analysis of the deposited data

Results flagged for a closer look

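The 4 lungs of each group were examined for a lung that stood apart in each of the 9 genes, 18 groups in all, of which chance alone marks about 1 in 20, and 3 were marked. Cav2 was at 274.65 CPM in control 3, far above the other controls. Cavin3 was at 53.2 CPM in control 2, above the other controls, which lay close together. Ehd2 was at 447 CPM in TO 2, above the other TO lungs.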

How the results depend on the processing

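No member was called under any alternative run, and the count of all genes called, 0 with edgeR on 8 libraries, was 7 with DESeq2, 3 with a replicate block, 3 with the replicate block without pair 1, and 44 with DESeq2 on 6 libraries, an alternative chosen after seeing the data. Cav3 stayed above 0 and Cavin1, Cavin3 and Ehd2 below 0 in every alternative. Signs of log2 fold changes turned as follows, and the cause was not tested. Cavin4 was 0.20 and Pacsin2 -0.0011 with limma-voom, and Cavin2 was 0.017 with library totals alone. In the 6 libraries of the study, Cav1 was 0.019, Cav2 0.17, Cavin2 0.022 and Cavin4 0.75 with edgeR, and 0.031, 0.18, 0.035 and 0.77 with DESeq2. Cavin4 was 0.075 with a block by specimen number. Pacsin2 was -0.0056 with the replicate block without pair 1.

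With each library left out in turn, the log2 fold change ranged from -0.35 to -0.071 for Cav1, -0.42 to 0.029 for Cav2, 1.08 to 1.93 for Cav3, -0.40 to -0.20 for Cavin1 and -0.18 to 0.060 for Cavin2. It ranged from -0.32 to -0.0027 for Cavin3, -0.44 to 0.68 for Cavin4, -0.30 to -0.13 for Ehd2 and -0.047 to 0.091 for Pacsin2. Cavin4 was not tested where at least 5 reads were asked of every library, because TO 1 holds 2.

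Lungs with the same replicate number also share a specimen number, whose meaning is not stated, and the main test did not treat them as pairs. The correlations of their deviations from the group means were 0.052, 0.13, 0.16 and 0.071. Control 1 correlated best with TO 4 (0.097), with which it shares the specimen number. The 6 pairs of control and TO lungs under a shared specimen number had correlations of 0.022 to 0.16, and the 10 other pairs of -0.16 to 0.0045. These ranges did not overlap, so lungs under a shared specimen number were more alike. The main edgeR test and the exact permutation tests left this number out, and only the block fits took it or the replicate number in. With the replicate block, Cav3 was 1.48 (unadjusted p 0.0145) and Cavin1 -0.30 (unadjusted p 0.0377), with an edgeR adjusted p of 1.0 for both. The depth of TO 1 limits the values of Cav3, Cavin3 and Cavin4 there to 10 reads or fewer.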
